A study of Sus scrofa with 13 samples.

Results

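In stem cells from pig fat, 274 stretches of the genome carried a peak of 5-hydroxymethylcytosine (5hmC) in at least 5 of 6 normoxia libraries and in at most 1 of 6 hypoxia libraries. They were found by merging all peaks of the 12 deposited peak lists that shared at least 1 base on chromosomes 1 to 18, which gave 395289 merged regions. The 274 are called normoxia regions here and make up 0.0693% of the merged regions. Because they were chosen on the peaks of both groups, the difference between the groups at these places is the choice itself and was not tested. The reverse choice, 5 or 6 hypoxia libraries with a peak and no more than 1 normoxia library, gave 1019 hypoxia regions, or 0.258% of the merged regions.

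5hmC is made when the TET enzymes oxidise 5-methylcytosine, a reaction that uses molecular oxygen, iron and 2-oxoglutarate. It is a step on the way to removal of DNA methylation, and it also persists as a mark of its own, often over active genes and enhancers. Mesenchymal stem cells are stromal cells that can form fat, bone and cartilage and that release growth factors.

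The cells were grown from abdominal fat of female domestic pigs that had been fed a high-cholesterol diet and had a narrowed renal artery, brought about with an irritant coil. Both groups share this disease model, so neither is a healthy control. The 6 hypoxia libraries came from cells held at 1% oxygen for 48 hours, and the 6 normoxia libraries from cells held at 20% oxygen. Sonicated and denatured DNA was captured with an antibody against 5hmC and sequenced. Each group held 1 library with each of the title numbers 110, 16, 21, 33, 49 and 4. The sources used here do not say what a title number marks, so the spread between libraries may be technical. The pigs' age and any sorting of the cells by surface markers were not stated, and DNA peaks do not allow a check of the cell type against its markers.

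The lists held 100696 to 245733 peaks on chromosomes 1 to 18, with normoxia 21 the shortest and normoxia 4 the longest. The count tables held 15569948 to 27428482 reads, with normoxia 21 and normoxia 4 again at the ends. Normoxia 21 had a peak in 23.9% of the merged regions and normoxia 4 in 54.6%, the lowest and highest shares of the 12 libraries. Numbers 49 and 4 were run on lane 8 and the others on lane 7, in both groups alike.

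The normoxia regions lay at the limit of the rule. Of the 274, 215 had a peak in 5 normoxia and 1 hypoxia libraries, 49 in 5 normoxia and 0 hypoxia libraries, and 10 in 6 normoxia and 1 hypoxia libraries. In all, 32032 regions (8.1% of the merged regions) had a peak in all 12 libraries. No region had a peak in all 6 normoxia and 0 hypoxia libraries, while 11 regions had the reverse pattern. Just outside the rule lay 1683 regions with 4 normoxia and 1 hypoxia libraries, 850 with 5 and 2, 506 with 4 and 0, and 62 with 6 and 2. The median fold over background of those outside was 5.36, 5.57, 5.11 and 5.51 in that order, against 5.27, 5.04 and 5.41 for the 215, 49 and 10 inside. Their median lengths were 498, 616.5, 442 and 810 bases, against 558, 524 and 695 inside. The folds of regions inside and outside covered nearly the same range, while the lengths rose with the number of libraries that had a peak. Among the 61885 merged regions with a peak in 5 to 7 of the 12 libraries (15.7% of all), 0.443% were normoxia regions and 1.65% hypoxia regions.

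**Figure D1:**
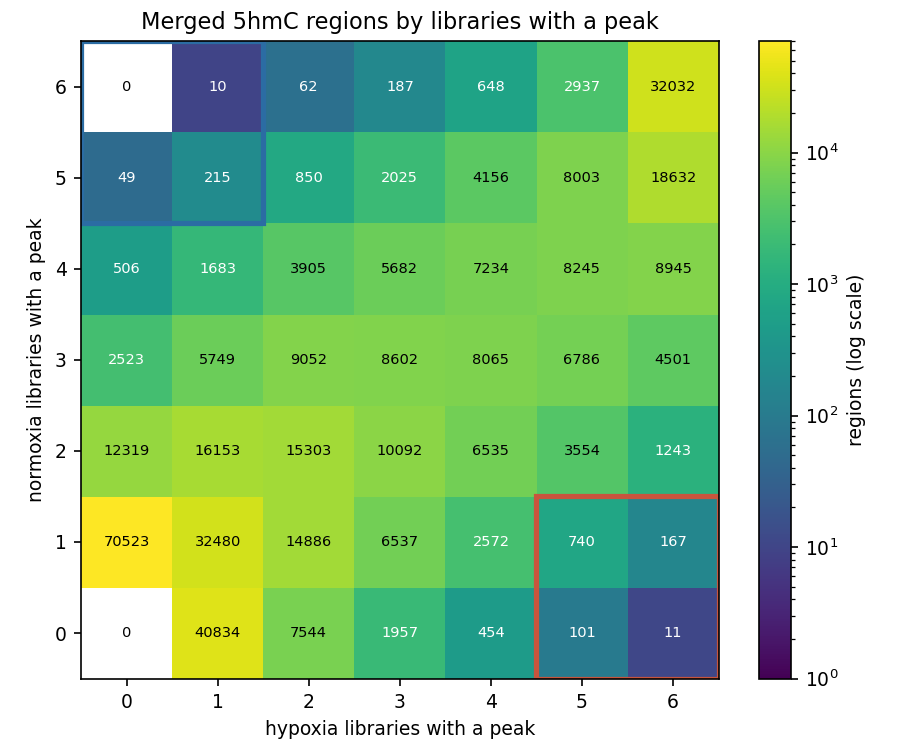
Number of merged regions (colour, log scale, and printed figures) by the number of normoxia libraries (vertical axis) and hypoxia libraries (horizontal axis) with a peak there. The blue outline holds the 274 normoxia regions and the red outline the 1019 hypoxia regions; the largest numbers sit at 1 library, and 32032 regions had a peak in all 12.

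The count of 4 normoxia and 0 hypoxia libraries was close to its mirror (506 against 454), and regions with a peak in 1 library were more often of normoxia (70523 against 40834). The order was the other way for 4 and 1, with 1683 regions for normoxia and 2572 for hypoxia, and at the thresholds of the rule. The pattern of 5 and 1 was met 215 times for normoxia and 740 times for hypoxia, 5 and 0 was met 49 and 101 times, and 6 and 1 was met 10 and 167 times. Normoxia 21, with the shortest list, lacked a peak in most of the normoxia regions, as given next. The part of its list in these counts was not tested.

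The normoxia regions drew on the 6 normoxia libraries unequally. In the order 110, 16, 21, 33, 49 and 4, the normoxia libraries had a peak in 270, 238, 81, 255, 266 and 270 of the 274. In the same order, the hypoxia libraries had a peak in 39, 6, 12, 85, 48 and 35. Normoxia 21 was far below the other normoxia libraries and within the range of the hypoxia libraries, whose highest was hypoxia 33 with 85. Of the 264 regions with 5 normoxia libraries, the one without a peak was normoxia 21 in 193 (73.1%), normoxia 16 in 36, normoxia 33 in 19, normoxia 49 in 8, and normoxia 110 and 4 in 4 each. Where 1 hypoxia library had a peak, in 225 regions, it was hypoxia 33 in 85 (37.8%) and hypoxia 16 in 6. Over all merged regions hypoxia 33 also had the highest share of the hypoxia libraries (49.6%) and hypoxia 16 the lowest (32.7%).

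**Figure D2:**
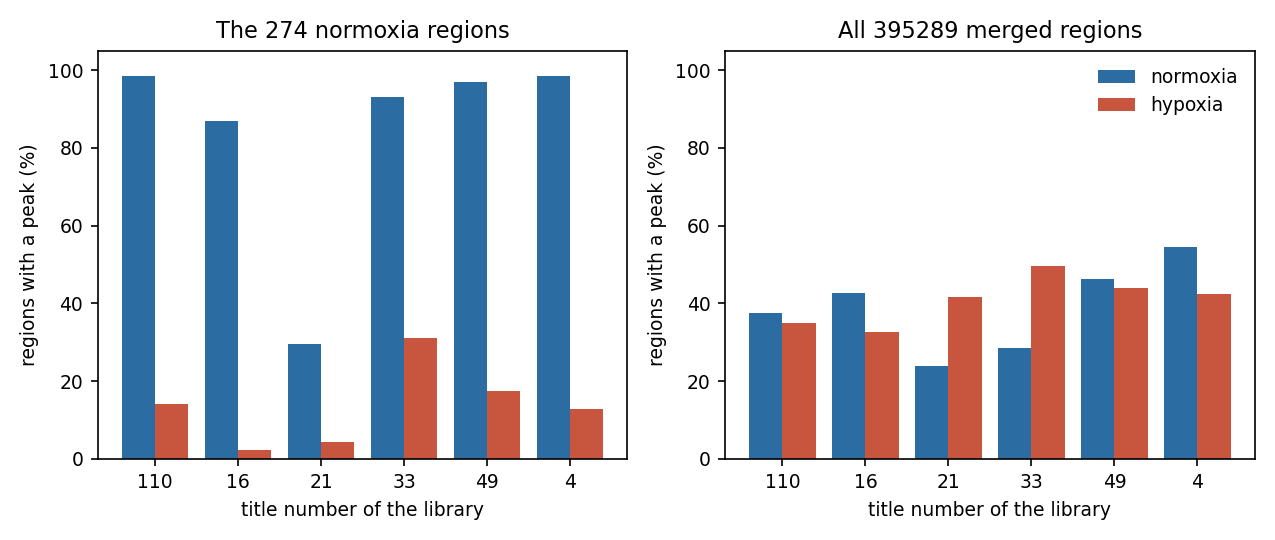
Share of the 274 normoxia regions (left) and of all 395289 merged regions (right) with a peak in each library, in percent, by title number. Blue bars are normoxia and red bars hypoxia libraries; in the normoxia regions normoxia 21 reaches 29.6% and the other normoxia libraries 86.9 to 98.5%, while over all regions the colours overlap.

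With both libraries of number 21 set aside, 203 of the 274 had a peak in all 5 remaining normoxia and at most 1 of the 5 remaining hypoxia libraries. This was a share of 74.1% (95% Wilson interval 68.6 to 78.9, counting error only). The 203 are the 193 regions without a peak in normoxia 21 and the 10 with a peak in all 6 normoxia libraries. The count thus restates how often normoxia 21 had no peak and is no check of the members. The other 71 had a peak in 4 of the 5 remaining normoxia libraries. All 274 thus met a threshold of 4 of 5, as the rule itself ensures whichever number is dropped. The 203 were the shorter ones, with a median length of 516 bases against 678 for the 71, at a median fold of 5.28 against 5.11. Without number 21, 47 regions had a peak in all 5 normoxia and in 0 of the 5 hypoxia libraries. Choosing anew from the same merged regions by 5 of 5 and at most 1 of 5 gave 261 normoxia regions (0.066% of all), of which 203 were among the 274. The mirror choice gave 487 hypoxia regions (0.123%), of which 214 were among the 1019. This choice drops number 21 and also asks for every remaining library of a group, so the change from 1019 against 274 cannot be laid to number 21 alone. With normoxia 21 alone dropped and the peaks merged anew, 204 regions had a peak in 5 of 5 normoxia and at most 1 of 6 hypoxia libraries. In that setting 2038 regions had a peak in at least 5 of 6 hypoxia and at most 1 of 5 normoxia libraries.

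Read by title number, the normoxia regions were not paired throughout. A number had a peak in its normoxia library and none in its hypoxia library 4 times in 204 regions, 5 times in 70 regions and never 6 times. The rule itself allows only 4, 5 or 6, and 6 needs all 6 normoxia and no hypoxia libraries, a pattern that no region had.

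The normoxia regions were shorter at the median than regions shared by all 12 libraries, and longer than the other sets they are set beside here. Their median length was 552 bases, with the middle part from 448 to 715 and a range of 275 to 2900, and together they covered 0.167 Mb. Merged regions with a peak in 5 to 7 libraries had a median of 512 bases, the hypoxia regions 458, all merged regions 402, and regions with a peak in all 12 libraries 1364. The peaks inside were narrower than the merged stretch, with a median width of 268 bases, about the same as in the hypoxia regions (267.5). The highest points of the peaks lay 235.5 bases apart at the median between the outermost libraries, against 176 in hypoxia regions and 178 in regions with 5 to 7 libraries. In 42.0% of normoxia regions all summits lay within 200 bases of each other, against 59.5% of hypoxia regions and 57.3% of regions with 5 to 7 libraries. Part of the length of a normoxia region is therefore spread between the peaks that were chained together.

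The peaks in normoxia regions were low ones in their own lists. The fold, as given by the authors' peak caller, is the height of a peak over its local background within 1 library. Median folds differ between whole lists, so folds of different libraries are set side by side below without reading one as higher 5hmC than another. In normoxia 110 the median fold was 5.53 in normoxia regions and 6.15 over the whole list, in normoxia 16 it was 4.79 against 5.81, and in normoxia 21 it was 4.17 against 5.45. Normoxia 33 had 5.32 against 5.86, normoxia 49 had 5.81 against 6.20, and normoxia 4 had 5.22 against 5.47. In each of the 6 lists the median over the normoxia regions thus lay below the list's own median. The few peaks that hypoxia libraries had there were also low, with medians of 4.72 to 5.36 against list medians of 5.67 to 6.02.

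Ranked by p-value in their own list, from 0 for the weakest to 100 for the strongest, the normoxia peaks in these regions had median percentiles of 38.0, 25.7, 17.3, 39.4, 44.4 and 45.0 in the order of the numbers. Those of the hypoxia libraries had 35.6, 19.8, 35.5, 42.0, 37.4 and 35.5. None of the 12 medians reached the middle of its list, although single peaks did: in the normoxia lists 57.9 to 90.1% of the peaks in these regions lay in the lower part, under percentile 50. Peaks above percentile 90 of a list were rare: 4 in normoxia 33, 4 in normoxia 4, and 1 each in normoxia 110, normoxia 49 and hypoxia 110. The lists end at a −log10 q of 2.00 to 2.09, so a region just under that limit in a library counts as having no peak there. Regions with a peak in all 12 libraries had a median percentile of 83.0 and a median fold of 9.21, against 36.5 and 5.22 over the peaks of the normoxia regions. Low strength was shared with like regions: hypoxia regions had 34.9 and 5.15, regions with 5 to 7 libraries 40.6 and 5.36, and all merged regions 37.4 and 5.22.

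**Figure D3:**
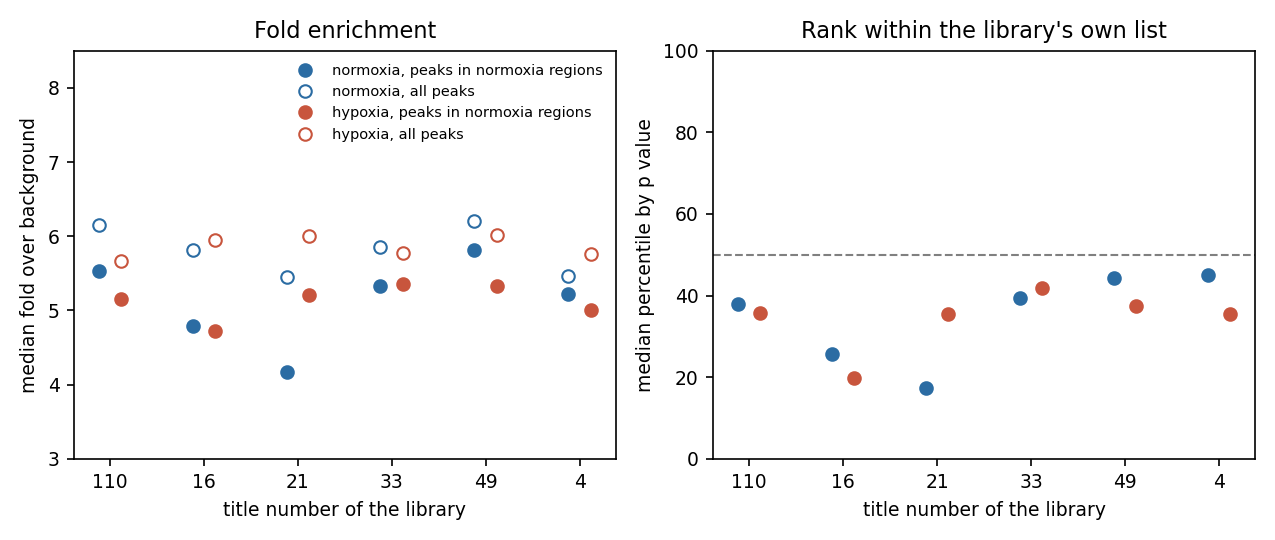
Median fold over background (left) and median percentile by p-value within the library's own list (right, dashed line at 50) of peaks in the normoxia regions, by title number. Blue is normoxia and red hypoxia, filled points are peaks in normoxia regions and open points all peaks of the list; each filled point lies below the open point of its library, and all percentiles lie between 17.3 and 45.0.

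The membership changed with the strength asked of a peak. When only peaks with a −log10 q of at least 5 were merged, 296 regions met the rule, and 68 of the 274 were overlapped by one of them. With the 100696 strongest peaks of each list, which makes the lists equally long, 315 regions met it and 9 of the 274 were overlapped. The number of regions was near that of the full lists in both settings, but most of the places were others. The hypoxia regions numbered 695 and 742 in these settings.

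On the chromosomes the normoxia regions followed the merged regions. There were 0.693 normoxia regions per 1000 merged regions in all, from 0.415 on chromosome 11 (5 regions) to 1.05 on chromosome 16 (13 regions). Chromosome 1, the longest, held 36, chromosome 13 held 27, chromosome 2 held 23, chromosome 15 held 21 and chromosome 3 held 20. With counts this small the chromosomes cannot be told apart closely. No chromosome was without a normoxia region.

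Few of them stood close together. Another normoxia region lay within 10 kb for 4 of the 274 (1.46%), within 100 kb for 17 (6.20%) and within 1 Mb for 79 (28.8%, 95% Wilson interval 23.8 to 34.5). The interval takes each region as a separate draw. Neighbours count each other and all regions share the same libraries, so it is too narrow to be read as the uncertainty. The median gap between neighbours on a chromosome was 4.85 Mb, the smallest 920 bases and the largest 55.3 Mb. Of the hypoxia regions 1.28%, 12.6% and 64.6% had another of their kind within 10 kb, 100 kb and 1 Mb, with a median gap of 1.41 Mb. They are more numerous, so the shares are not on the same footing at any of these distances. Closeness was not set against the spacing that the number of regions alone would give. Steps of up to 1 Mb joined the normoxia regions into 37 groups, 32 of 2 regions and 5 of 3.

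Coordinates below are those of the deposited lists, counted from 1. The genome build is not named in the sources used here. Gene names come from the RefSeq table of Sscrofa11.1, whose fit to the deposited coordinates was checked on the data, as described with the processing, and is not stated by the submitters. Whether a region is exonic or intronic, and on which strand its gene lies, was not analysed here.

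The tightest group of 3 spanned 13.3 kb at chr13:65754492-65767765, with 2 regions in SRGAP3 and 1 in the next gene, SETD5, which codes for a SET-domain chromatin protein. It held 9 merged regions in all and 0 hypoxia regions. All 3 of its members had a peak in the same 5 normoxia libraries, each except normoxia 21, and in 1 hypoxia library. That library was hypoxia 110 at the first, with a fold of 3.35, and hypoxia 49 at the other two, with 3.89 and 5.32.

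The next group spanned 214.5 kb at chr16:65779177-65993677, with 2 regions in ADAM19, a membrane-bound metalloprotease, and 1 in CYFIP2, a part of the WAVE complex that controls actin. The group at chr2:72823325-73599297 had 1 region in MLLT1, which codes for a transcription elongation factor, where the non-coding gene LOC110259353 overlaps. Its other members lay between SAFB2 and ZNRF4 and between ZNRF4 and PTPRS. The 2 remaining groups were wider and both on chromosome 16. The one at chr16:51788954-53080504 held regions in SH3PXD2B, an adaptor of podosomes, in RANBP17, a nuclear transport receptor, and between SMIM23 and FGF18. The one at chr16:21871788-23410278 held regions in WDR70, in EGFLAM, a matrix protein, and between RANBP3L and SLC1A3. Of these 5 groups, 1 held a hypoxia region in its span, the one with SH3PXD2B, which contained 1 among 326 merged regions. The spans held 9, 71, 217, 326 and 397 merged regions in the order given. Hypoxia regions were 0.258% of all merged regions, so these spans are too small to read their absence as a trait.

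The widest margin between the groups, 5 libraries, was shared by the 49 regions with 5 normoxia and 0 hypoxia libraries and the 10 with 6 and 1. Described here are the 10 of these with the highest median fold. Most of them lay in a gene, as did 63.4% of all merged regions. The first was 635 bases long at chr4:40123517-40124151 in SDC2, which codes for syndecan-2, a heparan sulphate proteoglycan of the cell surface. Its folds in normoxia 110, 16, 33, 49 and 4 were 12.3, 6.16, 4.79, 9.30 and 9.22, and normoxia 21 and all 6 hypoxia libraries had no peak. It had the highest median fold of the 10, and its values ran over the widest range of the 3 regions described first.

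The region in ANTXR1, which codes for a collagen-binding receptor of the cell surface, was 375 bases long at chr3:73233651-73234025. In normoxia 110, 16, 33, 49 and 4 its folds were 5.71, 7.69, 8.52, 8.45 and 4.78. COL5A1, a chain of the fibrillar type V collagen, held a region of 439 bases at chr1:273991938-273992376, with folds of 7.47, 4.23, 5.86, 7.33 and 10.6 in the same libraries. Both lacked a peak in normoxia 21 and in every hypoxia library.

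MAML2, a coactivator of Notch signalling, held a region of 754 bases at chr9:28264286-28265039 with folds of 10.0, 4.79, 6.20, 6.99 and 7.12 in normoxia 110, 16, 33, 49 and 4. The second region of ADAM19, 1220 bases at chr16:65795425-65796644, had folds of 10.4, 6.55, 5.69, 7.40 and 4.75. ACADL, an enzyme of mitochondrial fatty acid oxidation, held 677 bases at chr15:112941190-112941866 with folds of 10.5, 5.38, 6.39, 8.53 and 4.44. None of these 3 regions had a peak in normoxia 21 or in a hypoxia library.

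Of the 4 other regions of this rank, 3 had no hypoxia peak. CCBE1, which takes part in the growth of lymphatic vessels, held 361 bases at chr1:161385318-161385678 with normoxia folds of 4.19 to 7.93. HOPX, an atypical homeodomain protein, held 337 bases at chr8:55882227-55882563 with 4.71 to 8.08. CASP8, the initiator caspase of death-receptor apoptosis, held 524 bases at chr15:104924816-104925339 with 4.09 to 8.66. The region in CASP8 was unlike the others in lacking normoxia 16, not normoxia 21.

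The region ranked 7 of the 10, at chr1:223461468-223462058 between C1H9orf135 and MAMDC2, was 591 bases long and had a peak in all 6 normoxia libraries. Its folds were 4.84, 6.16, 3.36, 9.58, 10.3 and 6.07 in the order of the numbers, and hypoxia 33 had a peak of 4.01. It was the one of these 10 with a peak in normoxia 21 and in a hypoxia library.

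The 5 longest normoxia regions were chains of offset peaks. The longest, 2900 bases at chr9:73741061-73743960 in the non-coding gene LOC106504955, had summits spread over 1618 bases. Its folds ran from 3.12 in normoxia 110 to 8.03 in normoxia 21, with no peak in normoxia 49 and one of 4.73 in hypoxia 110. The others were 1565 bases at chr13:191040077-191041641 between ADAMTS5 and N6AMT1, 1524 bases at chr13:31830816-31832339 in CCDC36, 1271 bases at chr9:6548274-6549544 in RNF121, and 1249 bases at chr4:62478036-62479284 between STAU2 and RDH10. The region in CCDC36 was the one of these 5 with no hypoxia peak.

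In all, 182 of the 274 overlapped a gene (66.4%), and 165 a protein-coding gene (60.2%). The shares were 58.8% and 50.8% for hypoxia regions, 63.9% and 56.1% for regions with 5 to 7 libraries, and 67.9% and 60.6% for regions with a peak in all 12 libraries. Over all merged regions the shares were 63.4% and 55.6%. The normoxia regions thus had shares between those of all merged regions and those of the regions every library shared, with no test. They fell in 180 genes, 159 of them protein-coding, which is 0.850% of 18704 protein-coding genes. These were long genes, with a median of 137.7 kb against 20.75 kb over all protein-coding genes and 134.3 kb for the 485 that held a hypoxia region. Gene length thus moves with both kinds of region, and its part in the choice of genes was not tested. Both kinds were held by 10 of the 159 protein-coding genes with a normoxia region. Of all protein-coding genes, 2.59% held a hypoxia region. The 10 genes had a median length of 211 kb, and the overlap was not tested.

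Of 23910 genes on the table, 6 held 2 normoxia regions each: ADAM19, ANKHD1, FOXP1, MAML2, SCAF8 and SRGAP3. The first region of ADAM19, 680 bases at chr16:65779177-65779856, had a median normoxia fold of 4.82, and here normoxia 21 had a peak and normoxia 33 had none. The pair in MAML2 were close neighbours, since the first lay at chr9:28261631-28262182 with a median normoxia fold of 4.99. FOXP1, a forkhead transcription factor, held its pair farther apart, at chr13:52522134-52523007 with 4.41 and at chr13:52931505-52932285 with 3.81. SCAF8, which binds RNA polymerase II, held regions at chr1:12006819-12007376 with 5.38 and at chr1:12116652-12117436 with 4.69, and the latter had a peak in all 6 normoxia libraries. ANKHD1, an ankyrin-repeat protein, held them at chr2:142180229-142180814 with 5.51 and at chr2:142255153-142255603 with 6.71. Of these genes, ADAM19 was the one with no hypoxia peak in either region.

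Gene lists for programs of these cells held few of the genes. None of 37 targets of hypoxia-inducible factor on the gene table held a normoxia region, nor any of 19 genes of the fat-cell program, 24 of the bone and cartilage program, 14 stromal surface markers, 24 genes of inflammation and NF-kB signalling, 29 WNT genes or 15 of the cytoskeleton and smooth muscle. The list of extracellular matrix and TGF-beta genes had 2 of 38, the cell cycle 2 of 22, angiogenesis 1 of 33, and the enzymes of DNA methylation and hydroxymethylation 1 of 13. Beside the 0.850% of all protein-coding genes, these counts are too small to set a list apart and are given as a description. The lists do not hold every gene of a program, so an absence covers the listed genes only.

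The matrix genes on the list were COL5A1, described above, and LTBP1, which stores TGF-beta in its latent form outside the cell. EGFLAM, named above as a matrix protein, also held a region but was not on the list. The region in LTBP1 was 363 bases at chr3:106552476-106552838 with folds of 6.59, 4.62, 4.79, 5.81 and 4.78 in normoxia 110, 16, 33, 49 and 4 and no peak in any hypoxia library. DNMT3A, which sets new DNA methylation, held 383 bases at chr3:113539652-113540034 with folds of 7.94, 3.37, 4.59, 5.00 and 4.92 in the same libraries. Hypoxia 49 had a peak of 3.46 there.

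The cell-cycle genes on the list were the partners CDK6 and CCND3, a kinase and a cyclin that act together at the start of DNA replication. CDK6 held 865 bases at chr9:72733378-72734242 and CCND3 767 bases at chr7:37154096-37154862. In both the 1 hypoxia peak was in hypoxia 49, with folds of 7.02 and 5.86. The normoxia folds ran from 4.49 to 5.65 in CDK6 and from 4.10 to 7.33 in CCND3. SLIT2, a guidance ligand of ROBO receptors, held 516 bases at chr8:14838267-14838782 with normoxia folds of 4.21 to 10.0 and a peak of 6.77 in hypoxia 33.

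The merged regions around normoxia regions leaned the same way, and these neighbours did not enter the choice of the region beside them. Within 1 kb of the edges lay 304 other merged regions, with a peak in 2.97 normoxia and 2.68 hypoxia libraries on average, a difference of 0.289 libraries. Of them 45.7% had a peak in more normoxia than hypoxia libraries and 24.7% in more hypoxia libraries, against 35.2% and 38.6% of all merged regions. The mean difference was 0.220 at 1 to 2 kb, 0.255 at 2 to 5 kb, 0.169 at 5 to 10 kb, 0.130 at 10 to 20 kb, 0.107 at 20 to 50 kb and 0.0224 at 50 to 100 kb. Over all merged regions it was -0.115, with 2.34 normoxia and 2.45 hypoxia libraries. Around hypoxia regions it ran from -0.270 within 1 kb, through -0.368 at 1 to 2 kb, to -0.120 at 50 to 100 kb. The neighbours come from the same 12 libraries as the regions themselves, so they are no independent sample, and no test was made.

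**Figure D4:**
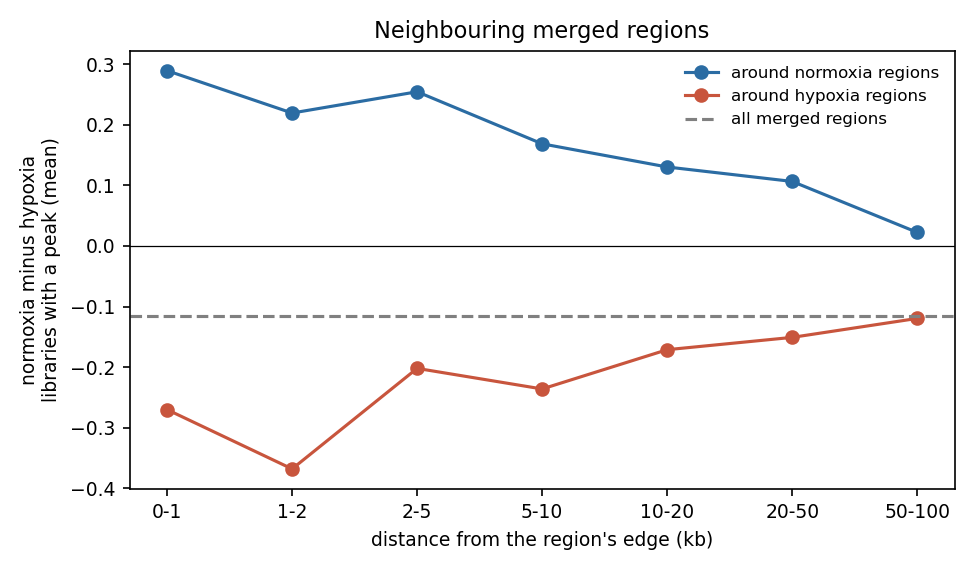
Mean number of normoxia minus hypoxia libraries with a peak (vertical axis) in merged regions at a given distance in kb from the edge of a normoxia region (blue) or hypoxia region (red). The dashed line is the mean of all merged regions, -0.115; the blue points fall from 0.289 within 1 kb to 0.0224 at 50 to 100 kb.

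Normoxia regions also stood in denser surroundings. Their median distance to the nearest other merged region was 467 bases, against 861 for regions with 5 to 7 libraries and 1354 for hypoxia regions. A region with a peak in all 12 libraries lay within 1 kb of 36 normoxia regions (13.1%) and within 10 kb of 141 (51.5%). The shares were 7.44% and 37.2% for regions with 5 to 7 libraries and 4.02% and 28.3% for hypoxia regions. The median distance to such a shared region was 9.11 kb, 17.3 kb and 29.7 kb in that order. Normoxia regions thus lay nearer to regions that all libraries shared than the other sets did, as a description with no test.

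To read the pattern in libraries that took no part in the choice, regions were chosen on 5 title numbers. The choice asked for a peak in at least 4 normoxia and at most 1 hypoxia libraries. The chosen regions were then looked up in both libraries of the number left out. They numbered 795 to 2624, and most were not among the 274, so this is no reading of the 274 themselves. With number 110 left out, 64.9% of 847 chosen regions had a peak in its normoxia library and 43.3% in its hypoxia library. For 16 the shares were 19.3% and 6.76% of 1657 regions, for 49 they were 76.4% and 53.6% of 795, and for 4 they were 73.7% and 63.1% of 1070. In these 4 numbers the normoxia library had the larger share. In the other 2 it had the smaller: for 21 the shares were 6.97% in normoxia and 17.3% in hypoxia, of 2624 regions, and for 33 they were 45.3% and 59.3% of 1734.

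Over the 6 numbers the mean share was 47.8% ± 29.2 in normoxia and 40.6% ± 23.3 in hypoxia (SD, n = 6 numbers), a mean difference of 7.21 ± 15.8 percentage points. This difference was smaller than its spread between numbers. List length moves with it: normoxia 21 and normoxia 33 had the shortest normoxia lists, 100696 and 143515 peaks, against 182726 and 224955 in hypoxia, and the part of list length in the result was not tested. Regions with a peak in any 5 of the 10 remaining libraries gave the level to compare with, and in them the left-out normoxia library had the larger share in 3 of 6 numbers. Set against that level, the difference was 15.5 percentage points for 110, -3.81 for 16, 17.2 for 21, 18.6 for 33, 25.1 for 49 and 1.39 for 4, above 0 in 5 of 6 with a mean of 12.3 ± 11.1 (SD, n = 6 numbers). The 6 choices share libraries, so no p-value is given. A stricter choice, 5 of 5 normoxia and 0 of 5 hypoxia libraries, left 2 to 46 regions per number and a mean difference of -3.24 ± 29.2 percentage points, the opposite sign. Set against the level of regions with 5 of 10 libraries, which was itself -5.11, the strict choice gave 1.86 ± 27.5, above 0 in 4 of 6 numbers. It ran from -39.5 for 110, on 3 regions, to 40.7 for 4, on 2 regions, so the strict choice gives no direction. The mirror of the looser choice, on the hypoxia side, gave -2.56 ± 14.7 against the same level. It was above 0 in 2 of 6 numbers and reached 24.0 for number 4. Regions of the looser choice had a peak in 4 to 6 of the 10 libraries and those of the level in 5. The sets thus differ in more than direction, and no cause is read from them.

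**Figure D5:**
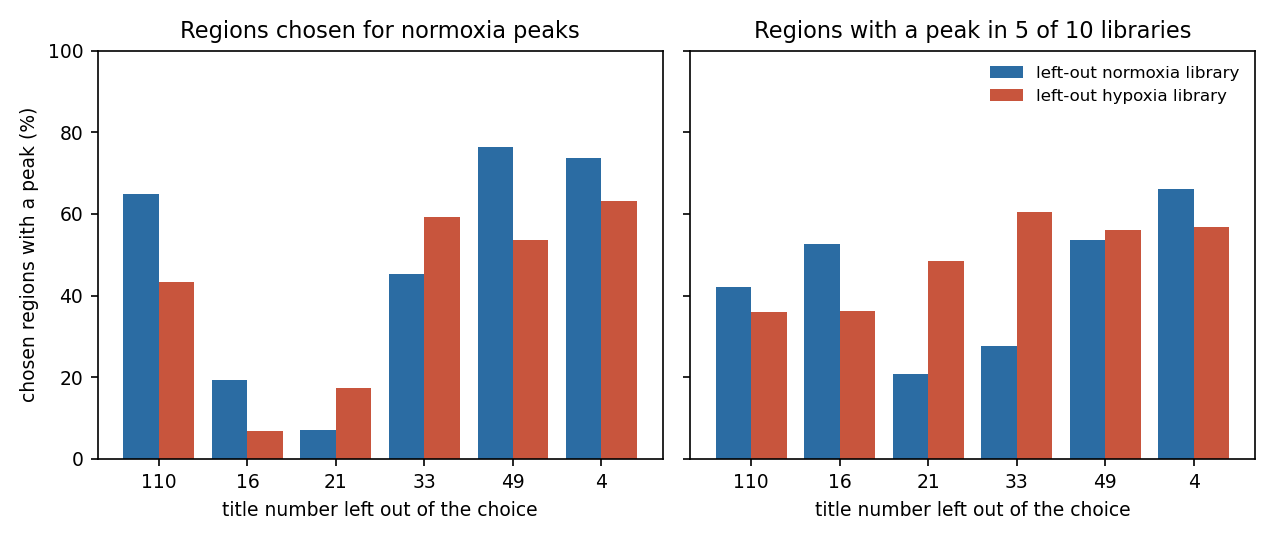
Share of regions with a peak in the normoxia (blue) and hypoxia (red) library of the title number that was left out of the choice, in percent, for regions chosen for normoxia peaks in the other 5 numbers (left) and for regions with a peak in 5 of the other 10 libraries (right). On the left the blue bar is the higher one for 110, 16, 49 and 4 and the lower one for 21 and 33; on the right the blue bar is lower for 21, 33 and 49.

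Gene counts of the same libraries were read for the genes that held a normoxia region. A library had 263578 to 714002 reads in genes, which was 1.69 to 2.89% of the reads in its count table. Of all merged regions, 63.4% overlapped a gene. Whether introns were counted is not stated. With so small a part of the reads in genes, a count may hold few or no reads of the region. Values are counts per 1000000 gene reads (CPM). LTBP1 had 162 CPM in the lowest, 188 in the median and 243 in the highest normoxia library, and 133, 140 and 181 in hypoxia. ANTXR1 had 117, 149 and 204 in normoxia and 78.2, 94.3 and 130 in hypoxia. For both genes the normoxia library was higher in all 6 numbers, although the ranges of the groups overlapped.

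COL5A1 had 15.2, 82.5 and 109 CPM in normoxia and 43.8, 51.1 and 72.3 in hypoxia, with the lowest value of all in normoxia 21. FOXP1 had 419, 540 and 615 CPM in normoxia and 418, 434 and 543 in hypoxia, and ADAM19 had 64.5, 108 and 133 against 80.9, 90.2 and 107. These 3 genes were higher in normoxia in 4, 5 and 5 of 6 numbers, with overlapping groups. SDC2, with the strongest region, had 7.59, 20.9 and 78.6 CPM in normoxia and 14.4, 31.7 and 80.9 in hypoxia, on as few as 2 reads, and was higher in normoxia in 1 of 6 numbers. MAML2, with 2 regions, had 140, 277 and 376 against 157, 294 and 342 and was higher in normoxia in 2 of 6. DNMT3A had 26.6, 86.1 and 123 against 48.1, 70.5 and 97.7 and was higher in 3 of 6.

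Of the 180 genes, 154 had at least 10 reads on average, and 113 of these (73.4%) had a lower mean CPM in hypoxia, with a median log2 ratio of hypoxia to normoxia of -0.13. Over all 12139 genes with that many reads the share was 48.7% and the median 0.01. Among 441 genes that held a hypoxia region it was 43.5%. The counts come from the same libraries as the peaks, and so from the contrast of the rule. The shares are therefore a description of the same libraries, and nothing is read from them.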

How the data were processed

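DNA captured with an anti-5hmC antibody was sequenced in 6 hypoxia and 6 normoxia libraries, grouped by the treatment label. An input sample was set aside. The submitters' processing notes list edgeR, HTSeq, Picard, MACS2 and Bowtie2, with no versions, settings or build. The authors deposited 1 peak list and 1 table of raw read counts per gene for each library. Per the labels' tools and the order of the columns, each deposited peak has a fold over background (a ratio), a −log10 p-value and q-value, and a score derived from the q-value. Control and threshold of the peak calling were not stated.

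The members, the gene lists and the alternatives were chosen with earlier results of these data known. Peaks were merged where they shared 1 base (Python 3.11.15, pandas 2.3.3, numpy 2.4.6; checked against bedtools 2.31.1 and on simulated lists). The fold of a library in a region is that of its strongest peak there. Named were the 10 members with the largest difference in libraries, ties broken by the median normoxia fold, the 5 longest, the 5 groups with the most members, and the genes that held these, held 2 members or stood on a list. Intervals are Wilson intervals (scipy 1.17.1), which take regions as independent although they share libraries. CPM are counts per 1000000 reads in genes, computed from the deposited counts. No test between the groups was made, because the rule used that contrast, and no fit with the title number as a pair enters the main values.

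Gene places were taken from the RefSeq table of Sscrofa11.1 after a check on the data. Across 21999 genes, peak density and read density per gene correlated at a Spearman rho of 0.149 to 0.375 in the 12 libraries. With peaks shifted by 10 kb this was 0.0956 to 0.269, by 100 kb 0.00604 to 0.103, and by 1000 kb -0.072 to -0.0271. Genes share a library and are not replicates, so this is a description. The last peak and last gene of the 18 chromosomes differed by 20.3 kb at the median and 359.9 kb at most. The correlations are weak, so gene places rest on this check and not on a stated build. Of 23910 genes of the table, 23908 had a row in the count tables.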

Additional observations from a re-analysis of the deposited data

Results flagged for a closer look

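In the number of normoxia regions with a peak, normoxia 21 lay far below the other normoxia libraries, with 81 of 274 against 238 to 270. In the median percentile of their peaks within the list, hypoxia 16 lay far below the other hypoxia libraries, at 19.8 against 35.5 to 42.0, on 6 peaks. In the CPM of MAML2, hypoxia 33 lay far below the other hypoxia libraries, at 157 against 286 to 342, and normoxia 33 was also the lowest of its group, at 140. Each was the extreme of 6 libraries by the size of its gap to the next; 36 sets of 6 values were looked at, and chance singles out about 1 in 20.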

How the results depend on the processing

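Every threshold on libraries changed the number of normoxia regions from 274. It was 2463 with 4 normoxia libraries enough, 49 with no hypoxia library allowed, 1186 with 2 allowed and 10 with all 6 normoxia libraries needed. Under the replicate block, which asks for a normoxia peak without a hypoxia peak in at least 5 of 6 title numbers, 70 remained, with a median length of 556 bases, a median fold of 5.08 and 17.1% within 1 Mb of another, against 552, 5.23 and 28.8% for the 274. This pairing rests on the shared title number alone. The share within 1 Mb was 91.6%, 16.3%, 76.2% and 20.0% under the 4 thresholds above in that order. The median length was 614 bases with 2 hypoxia libraries allowed and 695 with all 6 normoxia libraries needed. With peaks of a −log10 q of at least 5 the median length was 629 bases and the median fold 5.88. With equally long lists they were 783 and 6.97, and 39.0% lay within 1 Mb. Requiring 100 shared bases gave 270 regions, and merging peaks up to 100 bases apart gave 261. Leaving out both libraries of a title number, with 4 or 5 of 5 normoxia libraries needed, gave 40 to 2624 regions, median lengths of 478 to 734.5 bases, median folds of 4.99 to 5.46 and 12.5 to 91.9% within 1 Mb. At 5 of 5, leaving out 21 gave 265 regions, and leaving out 110, 16, 33, 49 or 4 gave 40, 62, 68, 48 and 48. Without normoxia 21 alone, chosen after seeing the data, 5 of 5 gave 204 regions and 4 of 5 gave 2231, with a median length of 480 bases and 89.9% within 1 Mb. The mean difference in the number left out was 7.21 percentage points and turned to -3.24 under the strict choice, on few regions. Set against the level of regions with 5 of 10 libraries these were 12.3 and 1.86. The strict value of 1.86 had an SD of 27.5 between numbers and gives no direction. The cause of these shifts was not tested. Normoxia 21, with the fewest reads (15569948), also had the shortest list (100696 peaks). Hypoxia 16 and normoxia 33 had 15893774 and 16348840 reads, with lists of 146147 and 143515 peaks. The part of depth in the missing peaks of normoxia 21 was not tested.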

Other observations

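Outside chromosomes 1 to 18, the same rule found 6 normoxia regions and 40 hypoxia regions among 13861 merged regions on chromosome X, and none of either kind among 607 on chromosome Y and 3 on the mitochondrial genome. The labels give female pigs, and where the reads behind the merged regions on chromosome Y come from was not tested.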
